A study of Mus musculus with 9 samples.

Results

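H3K27ac, the acetylation of lysine 27 of histone H3 that marks active promoters and enhancers, was examined at 8 genes of the Runx and Ikaros families of transcription factors in mouse naive CD8+ T cells. The 8 genes were listed by name, out of 22284 protein-coding genes of the mm9 annotation, and 3 of them form the Runx group (Runx1, Runx2 and Cbfb) and 5 the Ikaros group (Ikzf1, Ikzf2, Ikzf3, Ikzf4 and Ikzf5). The list does not hold every Runx gene, so "Runx group" stands only for the 3 genes named. Each gene was read from the end of its body to 50 kb upstream of its transcription start site (TSS), and every H3K27ac island that shared at least 1 bp with that window was taken whole. An island is a stretch of the genome that the SICER peak caller found enriched for ChIP-seq reads, and its count is the number of reads in it.

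Runx proteins bind DNA through a conserved Runt domain, and Cbfβ is the partner subunit that does not touch DNA but makes that binding stable. Runx1 is needed for blood cell formation and acts throughout T cell development, where Runx factors silence Cd4 in the CD8+ lineage, while Runx2 is best known as the master regulator of bone formation. Ikaros proteins carry zinc fingers for DNA binding and further zinc fingers through which they pair with each other, and they work as activators or as repressors in complexes such as NuRD. Ikzf1 encodes Ikaros, a regulator of lymphocyte development, Ikzf2 encodes Helios, Ikzf3 encodes Aiolos, Ikzf4 encodes Eos and Ikzf5 encodes Pegasus.

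Cells of both genotypes came from spleens of C57BL/6 mice that carried the hCD2-Cre transgene, which is active mainly in mature T cells, and a Rosa26 lsl-GFP reporter. WT mice had intact Tcf7 and Lef1, and dKO mice had floxed alleles of both, the genes of the transcription factors Tcf1 and Lef1. Young adult mice of both sexes were used. Since hCD2-Cre does not excise in every cell, GFP+ TCRbeta+ CD62Lhi CD44lo-med CD8+ cells were sorted from both genotypes, so that the reporter marked cells in which Cre had acted. The series held 9 samples, 4 H3K27ac samples and 1 input of WT and 3 H3K27ac samples and 1 input of dKO, and the replicates of a genotype were pooled before islands were called. Each value below therefore comes from 1 list per genotype. There is no replicate check and no test between genotypes, and the intervals given with ratios are 95% exact (Clopper-Pearson) intervals that cover counting error only.

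SICER had found 65563 islands in WT with 82668007 counts over 392.7 Mb, and in dKO 82213 islands with 57665047 counts over 429.3 Mb. Before genotypes were compared, counts were therefore divided by the total of their list and given as CPM, counts per 1000000 island counts. The log2 ratio of dKO to WT counts is the sum of the log2 ratio of covered width and the log2 ratio of scaled counts per kb, and all of these are given as differences of dKO from WT. Promoter islands at the genes that define the sorted cells were present in both lists for 5 of 5 T cell, 2 of 2 CD8 and 3 of 3 naive T cell markers. Among markers of other cells, 2 of 2 for CD4 T cells, 4 of 4 for B cells, 4 of 4 for myeloid cells, 2 of 2 for regulatory T cells, 1 of 2 for NK cells and 1 of 2 for erythroid cells carried an island in both lists, and Ncr1, Siglech and Hba-a1 carried none. In these bulk lists, fewer cells with the mark and less of the mark per cell cannot be told apart.

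To ask whether the H3K27ac islands of the family genes differed between WT and dKO CD8+ T cells, the scaled count ratio was computed for each window. Runx1, Runx2 and Cbfb had more scaled counts in dKO, by 1.37, 1.52 and 1.44 times, although Cbfb was lower in dKO by counts per kb and over its gene body alone. The Ikaros genes ranged from 0.761 times at Ikzf1 to 1.21 times at Ikzf4. At a ratio of at least 1.5 in either direction, 1 of the 8 genes (Runx2) was called higher in dKO and 0 were called lower. Islands of both lists were present at 16414 protein-coding genes, of which 11.5% were called higher and 11.5% lower, so the number of members called was close to what this share gives. The median log2 count ratio was 0.52 for the Runx group, -0.07 for the Ikaros group and -0.03 for all genes, where the SD over genes was 0.63. A ratio above 1 was found at 5 of 8 members and at 47.5% of all genes.

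**Figure D1:**
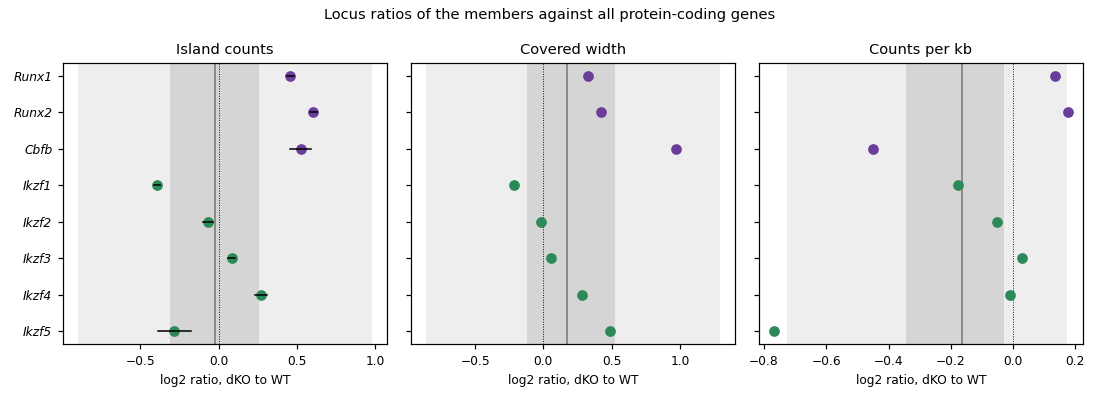
Log2 ratios of dKO to WT (horizontal axes) of island counts, covered width and scaled counts per kb for the 8 genes (rows), with Runx1, Runx2 and Cbfb in purple and the Ikaros genes in green. Black bars in the first panel are 95% exact intervals for counting error. Light grey bands span the 5th to 95th percentile of all 16414 genes, dark grey bands the 25th to 75th, and grey lines mark the medians. In counts, the 3 Runx group genes and, at its edge, Ikzf4 lie to the right of the dark band. In counts per kb Runx1, Runx2, Ikzf3 and Ikzf4 lie right of it, while Cbfb lies left of it and Ikzf5 lies left of the light band.

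Width and depth moved apart at several of these genes. Covered width was larger in dKO at 6 of 8 members and at 65.1% of all genes, with a median log2 ratio of 0.30 for the members and 0.17 for all genes. Scaled counts per kb were higher in dKO at 3 members (Runx1, Runx2 and Ikzf3) and at 20.6% of all genes, with a median log2 ratio of -0.03 for the members and -0.16 for all genes. By counts per kb, 0 members were called higher, against 0.42% of all genes, and Ikzf5 alone was called lower, against 9.28% of all genes. The 3 genes that code for Runx proteins and their partner thus shared a higher count ratio, but not a higher depth.

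Runx1 (chr16:92601712-92826311, minus strand) had the second largest H3K27ac-covered width of the 8 genes in WT cells. Its window of 274.6 kb held 17 islands with 40460 counts in WT over 206.4 kb, which is 489 CPM, and 19 islands with 38762 counts in dKO over 258.4 kb, which is 672 CPM. Islands thus covered 70.8% of the window in WT and 90.8% in dKO. This is a log2 count ratio of 0.46 (0.44 to 0.48), made up of 0.32 from width and 0.13 from counts per kb, and it lay at percentile 84.8 of all genes. The counts per kb ratio lay at percentile 93.2. No other protein-coding gene has a TSS in this window.

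Within the Runx1 window, 10 merged regions had islands in both lists and 5 of 15 had a dKO island alone. Merged regions were formed by joining islands of both lists that overlapped. Over the genome, 28.1% of 76633 merged regions had a dKO island alone and 12.8% a WT island alone, so the number at Runx1 was close to that share. Of the 10, 9 had more scaled counts in dKO, beside 43.4% of all 45322 merged regions with islands in both lists. At Runx1 2 were called higher and 0 lower, whereas 11.1% of all 45322 were called higher and 14.6% lower. The largest increase of any region at the 8 genes lay in a Runx1 intron 52.7 to 60.1 kb downstream of the gene's start (chr16:92766201-92773600). It had 296 counts in WT over 1.8 kb and 760 counts in dKO over 7.4 kb, with a log2 count ratio of 1.88 (1.68 to 2.08). The counts per kb ratio was -0.16, so the wider island carried the difference. A dKO island of 699 counts over 8.8 kb with no WT island lay in the gene body (chr16:92683801-92692600), next to the proximal promoter.

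Runx1 is transcribed from a distal and a proximal promoter, and the merged regions that hold them differed in depth ratio. The distal promoter lay in a region of 80.8 kb (chr16:92775401-92856200), the one with the most counts at Runx1, with 16273 counts in 4 islands in WT and 16216 counts in 2 islands in dKO. Its log2 count ratio was 0.51 (0.48 to 0.55), and its counts per kb ratio was 0.26. The proximal promoter (chr16:92694801-92701000) had 1534 counts in WT over 3.6 kb and 1533 counts in dKO over 6.2 kb, so that the log2 count ratio was 0.52 (0.42 to 0.62). Here the island was wider in dKO and its counts per kb ratio was -0.27. The count ratios of the 2 regions thus had overlapping intervals, while their depth ratios had opposite signs. The distal region runs from 29.9 kb upstream to 50.9 kb downstream of the gene's start, and the proximal one spans 6.2 kb. Their depths are therefore means over unlike stretches and not depths of the promoters alone.

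Runx2 (chr17:44632936-44951746, minus strand) had the longest window, 368.8 kb, and the lowest island depth of the 8 genes in both genotypes. WT cells had 41 islands with 31814 counts over 207.8 kb, or 385 CPM, and dKO cells had 50 islands with 33678 counts over 279 kb, or 584 CPM. The covered share of the window was 56.3% in WT and 74.3% in dKO. The log2 count ratio was 0.60 (0.58 to 0.62) with 0.43 from width and 0.18 from counts per kb, which lay at percentiles 89.0, 69.4 and 95.1 of all genes. The call rested on a narrow margin: with island counts taken in proportion to the width inside the window the ratio was 0.58, just under the log2 limit of 0.585, and by counts per kb Runx2 was not called.

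The difference at Runx2 was spread over the locus. Of 44 merged regions, 27 had islands in both lists, 16 had a dKO island alone and 1 had a WT island alone, beside 28.1% and 12.8% of all regions. Among the 27, 23 had more scaled counts in dKO, beside 43.4% of all regions with islands in both lists. Of the 27, 10 were called higher and 0 lower, again beside 11.1% and 14.6% of all regions. These regions share 1 locus and are not independent of each other. The 16 dKO-only islands held 3548 counts together, and the strongest of them, with 1305 counts over 14.4 kb, covered the 3' end of the gene (chr17:44628001-44642400). The WT-only island, with 389 counts over 3.4 kb, lay 46.9 to 50.3 kb upstream (chr17:44998601-45002000).

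In 6 of these regions several WT islands were matched by 1 dKO island, and in 4 regions the reverse was seen, whereas over all regions these numbers were 3669 and 6773. The region with the most counts was an intronic stretch of 50 kb (chr17:44690801-44740800), which had 6486 counts in 6 islands in WT and 6877 counts in 1 island in dKO. Its log2 count ratio was 0.60 (0.55 to 0.65) and its counts per kb ratio 0.27. Toward the 3' end, an intronic region (chr17:44643001-44649800) had 349 counts in WT over 3.2 kb and 642 counts in dKO over 6.8 kb, so that the log2 ratio was 1.40 (1.21 to 1.59). An exonic region (chr17:44741601-44743600) had 130 counts in WT over 0.8 kb and 227 counts in dKO over 2 kb, so that the log2 ratio was 1.32 (1.01 to 1.65). The depth ratios of the latter 2 regions were 0.31 and 0.00, so most of both increases was width.

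Both Runx2 promoters were deeper in dKO after scaling. The proximal promoter (chr17:44870401-44876800) had 1737 counts in WT over 6.2 kb and 1776 counts in dKO over 6.4 kb, with a log2 count ratio of 0.55 (0.46 to 0.65) and a counts per kb ratio of 0.51. The distal promoter (chr17:44948801-44952400) was weakly marked, with 422 counts in WT over 3.2 kb and 315 counts in dKO over 2.4 kb. Its counts per kb ratio was 0.51 and its log2 count ratio 0.10 (-0.12 to 0.31). An intron of Runx2 also holds the promoter of Supt3h, a gene for a SAGA complex subunit that is transcribed in the opposite direction. That region (chr17:44913001-44915400) had 1140 counts in WT over 1.8 kb and 633 counts in dKO over 2.4 kb, with a log2 count ratio of -0.33 (-0.47 to -0.19) and a counts per kb ratio of -0.74, against the direction of the Runx2 promoters.

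**Figure D2:**
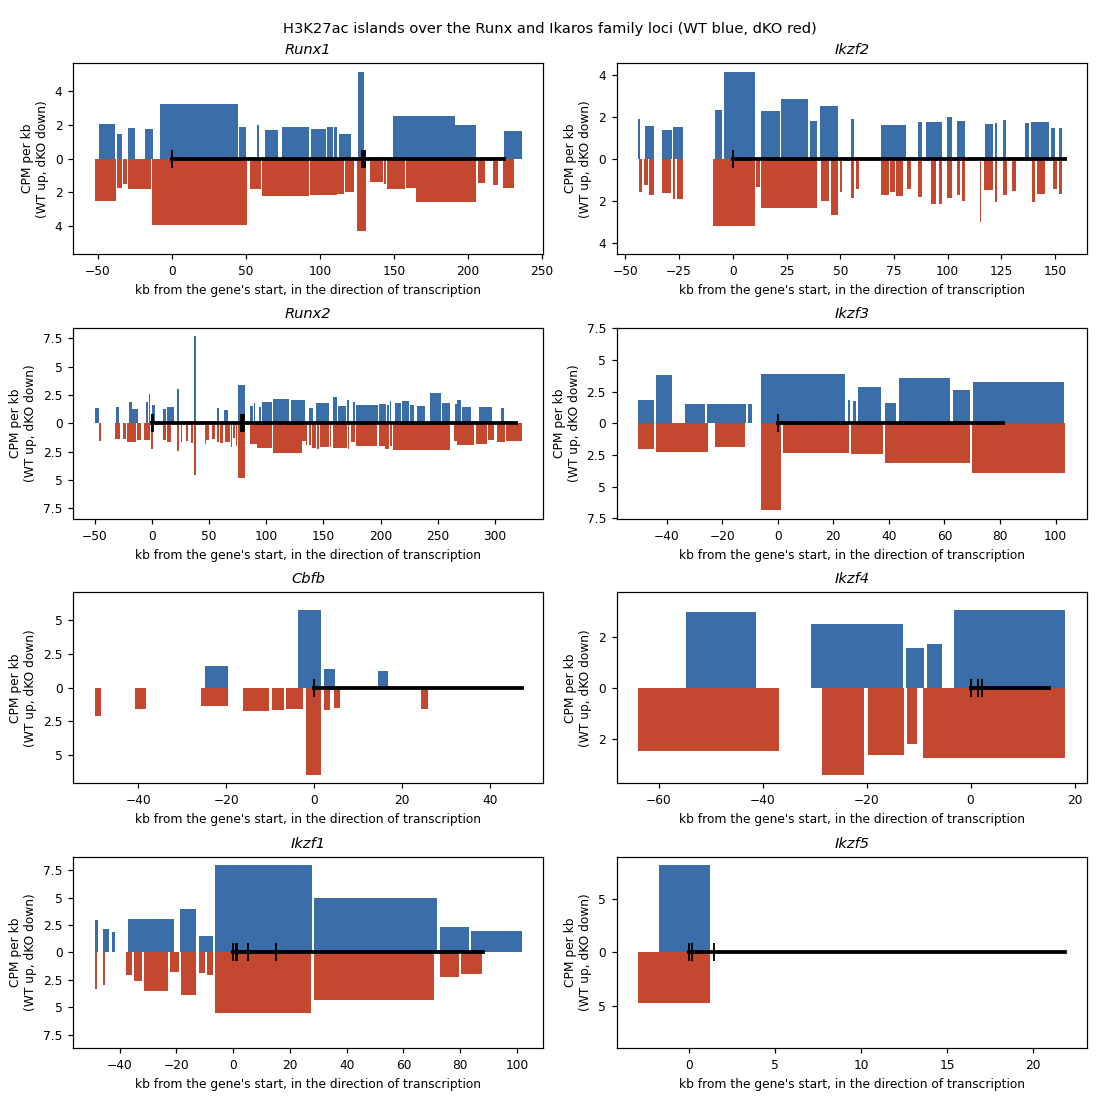
H3K27ac islands over the windows of the 8 genes, drawn to scale. The horizontal axes give kb from the gene's start in the direction of transcription, and the vertical axes CPM per kb of each island, upward in blue for WT and downward in red for dKO. Black bars mark the gene bodies and vertical ticks their TSSs. At Runx1 and Runx2 dKO islands fill most gaps between WT islands, at Cbfb dKO islands upstream have few WT counterparts, at Ikzf1 the WT island over the promoter is the deeper one, and at Ikzf5 a single island lies over the start in both genotypes.

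Cbfb (chr8:107694574-107741886, plus strand), the gene of the subunit shared by Runx proteins, had few islands. Its window of 97.3 kb held 4 islands with 3685 counts in WT over 15.2 kb (44.6 CPM) and 10 islands with 3691 counts in dKO over 29.8 kb (64.0 CPM). The log2 count ratio was 0.52 (0.46 to 0.59), with 0.97 from width and -0.45 from counts per kb, so its width ratio lay at percentile 90.5 of all genes and its depth ratio at percentile 15.9. With the gene body alone as the window the log2 ratio was -0.35, so the direction turned with the choice of window.

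The higher count at Cbfb lay in islands that dKO alone had upstream. Upstream of the promoter, WT had 1 island with 681 counts over 5.2 kb, whereas dKO islands held 1695 counts over 18.4 kb. The 1 upstream region with islands in both lists (chr8:107668801-107675000) had 681 counts in WT and 492 in dKO, with a log2 count ratio of 0.05 (-0.12 to 0.22). Of 9 merged regions, 5 had a dKO island alone, with 1332 counts together, beside 28.1% of all regions. The strongest of these, with 564 counts over 5.8 kb, lay 10.4 to 16.2 kb upstream of the TSS (chr8:107678401-107684200), and another covered the promoter of Ces4a, a carboxylesterase gene. A WT island of 252 counts in a Cbfb intron (chr8:107709001-107711400) had no dKO counterpart. The merged region over the Cbfb promoter (chr8:107688201-107696200) had 2476 counts in 1 island in WT over 5.2 kb and 1616 counts in 2 islands in dKO over 7.2 kb. Its log2 count ratio was -0.10 (-0.19 to -0.00) and its counts per kb ratio -0.57. The dKO island over the start itself, from 1.77 kb before to 1.63 kb after it, held 6.45 CPM per kb. The WT island, which began 3.57 kb before the start, held 5.76 CPM per kb. Since the WT island is the wider one, these means cover unlike stretches and do not compare the depth at the start itself.

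Ikzf1 (chr11:11585006-11672929, plus strand) had the most counts of the 8 genes in WT cells and the lowest dKO to WT ratio. Its window of 137.9 kb held 10 islands with 52321 counts in WT over 137 kb (633 CPM) and 13 islands with 27787 counts in dKO over 117.8 kb (482 CPM). The log2 count ratio was -0.39 (-0.41 to -0.37), at percentile 19.9 of all genes, with -0.22 from width and -0.18 from counts per kb. The ratio of 0.761 was within the limit of 1.5 times and Ikzf1 was not called lower. It stayed below 0 under each of the 10 settings tried.

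Of the promoter, the rest of the gene body and the upstream stretch, each summed over its regions, the promoter of Ikzf1 had the lowest ratio. The promoter region (chr11:11578601-11612800) had the most WT counts of any region at the 8 genes, with 22425 counts in WT over 34.2 kb and 10767 counts in dKO over 34 kb. Its width thus hardly differed, and its log2 count ratio of -0.54 (-0.57 to -0.51) was nearly all depth, with a counts per kb ratio of -0.53. The rest of the gene body had a log2 count ratio of -0.19 (-0.23 to -0.16), and the upstream regions, a WT-only island included, had -0.13 (-0.18 to -0.07). Of the 8 merged regions with islands in both lists, 1 had more scaled counts in dKO, beside 43.4% of all such regions.

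The largest decrease of any region at the 8 genes also lay at Ikzf1, 43.8 to 45.8 kb upstream (chr11:11539201-11541200). It had 351 counts in WT over 2 kb and 102 counts in dKO over 0.6 kb, so that the log2 count ratio was -1.26 (-1.60 to -0.94). The counts per kb ratio there was 0.47, so the narrower dKO island carried this difference. In the upstream stretch 19.2 to 37.6 kb from the TSS (chr11:11547401-11565800), 1 WT island of 4067 counts was matched by 4 dKO islands with 2725 counts, and the log2 count ratio was -0.06 (-0.13 to 0.01).

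Ikzf3 (chr11:98326216-98407345, minus strand), which encodes Aiolos, an Ikaros relative prominent in B cells, differed little in total. WT had 13 islands with 33820 counts over 136.2 kb (409 CPM) and dKO had 8 islands with 24993 counts over 141.4 kb (433 CPM). In all, the log2 count ratio was 0.08 (0.06 to 0.11), with 0.05 from width and 0.03 from counts per kb. The value was -0.00 when islands were assigned by their midpoint, and 0.39 without islands over promoters of other genes, so no direction is given for this gene. Zpbp2 and Ormdl3 have their TSS in this window.

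The 2 ends of the Ikzf3 locus differed in opposite directions. The promoter region (chr11:98381201-98413400, also over the Zpbp2 promoter) had 9953 counts in WT and 5970 in dKO, a log2 count ratio of -0.22 (-0.26 to -0.17). The region over the 3' end (chr11:98303801-98337400, also over the Grb7 promoter), which had the most dKO counts at this gene, had 8969 counts in WT and 7675 in dKO, a log2 count ratio of 0.29 (0.25 to 0.34). Borders also moved at the promoter. In WT 1 island ran from 6.06 kb before to 24.1 kb after the gene's start at 3.93 CPM per kb, whereas in dKO a short island from 5.86 kb before to 1.14 kb after the start held 6.86 CPM per kb and the next one, from 1.75 to 25.7 kb after it, held 2.31 CPM per kb.

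Ikzf2 (chr1:69577788-69732534, minus strand), which encodes Helios, a factor abundant in regulatory T cells, also had nearly the same total in both genotypes. Its window of 204.7 kb held 23 islands with 21124 counts in WT over 114.4 kb (256 CPM) and 33 islands with 14035 counts in dKO over 113 kb (243 CPM). The log2 count ratio was -0.07 (-0.10 to -0.04), and it was 0.00 with either other scaling. With islands under 5 CPM left out it was -0.33. Of 26 merged regions, 19 had islands in both lists, and 2 of these were called lower in dKO and 0 higher, beside 14.6% and 11.1% of all regions.

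The regions called lower at Ikzf2 were 2 wide WT islands that were each matched by 2 shorter dKO islands. An intronic region (chr1:69635001-69642800) had 1115 counts in WT over 7.8 kb and 496 counts in dKO over 4 kb, so that the log2 count ratio was -0.65 (-0.80 to -0.50). A region over exons near the 3' end (chr1:69585201-69593800) had 1233 counts in WT over 8.6 kb and 551 counts in dKO over 5.4 kb, so that the log2 count ratio was -0.64 (-0.79 to -0.50). Their counts per kb ratios were 0.31 and 0.03, so neither was shallower in dKO after scaling. A WT-only island of 250 counts (chr1:69594801-69596600) lay beside the latter. The promoter region (chr1:69722401-69741800) had 5583 counts in WT and 3597 in dKO, with a log2 count ratio of -0.11 (-0.18 to -0.05) and a counts per kb ratio of -0.24.

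Ikzf4 (chr10:128067899-128083047, minus strand), which encodes Eos, a partner of Foxp3 in regulatory T cells, had 5 islands in each list. They held 13162 counts in WT over 58.8 kb (159 CPM) and 11068 counts in dKO over 71.4 kb (192 CPM), a log2 count ratio of 0.27 (0.23 to 0.31). Nearly all of it was width, with 0.28 from width and -0.01 from counts per kb. The value changed to -0.05 with 100 kb upstream, and to -0.35 when islands were assigned by their midpoint, which left out the wide dKO island at the upstream border of the window. That island lay in a region over the promoters of Cdk2, Pmel and Rab5b (chr10:128119801-128147000), with a log2 count ratio of 0.28 (0.21 to 0.34) and a counts per kb ratio of -0.44. The region over the Ikzf4 promoter (chr10:128064801-128095400) had 6205 counts in WT and 4558 in dKO, a log2 count ratio of 0.07 (0.02 to 0.13).

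Promoter islands of 2 regulatory T cell markers also differed between the lists. Their values are whole islands at a promoter, not sums over gene windows, so they are not set against those of the Ikaros genes. Foxp3, the factor that defines regulatory T cells, had 11.6 CPM in promoter islands over 7 kb in WT and 120 CPM over 28 kb in dKO. Il2ra, the IL-2 receptor alpha chain, had 6.06 CPM over 2.4 kb in WT and 115 CPM over 30.2 kb in dKO. The list of 2 markers summed to 17.6 CPM in WT and 235 CPM in dKO. The part of this difference in the values of Ikzf2 and Ikzf4 was not tested. Much of the difference at Foxp3 and Il2ra was thus in the width of the islands. At the CD8 markers, 1 WT island of 362 CPM over 65 kb covered the promoters of both Cd8a and Cd8b1. In dKO the promoters had separate islands, with 135 CPM over 27.2 kb at Cd8a and 157 CPM over 30 kb at Cd8b1. Neither dKO island alone is therefore a like counterpart of the WT island.

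Ikzf5 (chr7:138532166-138554035, minus strand), which encodes Pegasus, the most divergent member of the family, had 1 island in each list. It lay over the shared promoter of Ikzf5 and Acadsb, an acyl-CoA dehydrogenase gene (chr7:138552801-138557000). It held 2008 counts in WT over 3 kb (24.3 CPM) and 1151 counts in dKO over 4.2 kb (19.96 CPM). Its log2 count ratio was -0.28 (-0.39 to -0.18), with 0.49 from width and -0.77 from counts per kb, and the depth ratio lay at percentile 4.21 of all genes. Since the island covers both starts, the count cannot be divided between Ikzf5 and Acadsb.

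The depth of the islands, in unscaled counts per kb of covered width, ordered the 8 genes much alike in the 2 lists. In WT cells Ikzf5 was highest with 669 counts per kb, followed by Ikzf1 with 382, Ikzf3 with 248, Cbfb with 242, Ikzf4 with 224, Runx1 with 196, Ikzf2 with 185 and Runx2 with 153, and the median of all genes was 227. The counting intervals of Ikzf3 (246 to 251) and Cbfb (235 to 250.4) overlapped, and those of the other neighbours in this order did not. In dKO cells the order was Ikzf5 with 274 counts per kb, Ikzf1 with 236, Ikzf3 with 177, Ikzf4 with 155, Runx1 with 150.0, Ikzf2 with 124, Cbfb with 124 and Runx2 with 121, and the median of all genes was 137. The intervals of Ikzf2 (122 to 126), Cbfb (119.9 to 128) and Runx2 (119 to 122) overlapped from each to the next.

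Cbfb was the gene that moved most in this order, from rank 4 to rank 7. Among all genes, its depth lay at percentile 57.4 in WT and 34.9 in dKO. Runx1 moved from percentile 33.8 to 62.3 and Runx2 from 12.1 to 31.2. Ikzf1 and Ikzf5 stayed high, at percentiles 90.7 and 98.9 in WT and 94.9 and 97.4 in dKO.

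Over all 8 genes, 109 of 114 WT islands (95.6%, interval 90.1 to 98.6%) and 107 of 139 dKO islands (77.0%, interval 69.1 to 83.7%) shared at least 1 bp with the other list. These intervals treat islands as independent of each other, which islands of 1 locus are not. The overlaps made 114 merged regions, of which 77 had islands in both lists, 5 in WT alone and 32 in dKO alone. The 32 are 28.1% of the 114, the same share as over the genome, and the 5 are 4.39%, beside 12.8% over the genome. Of the 77, 51 had more scaled counts and 48 more scaled counts per kb in dKO, against 43.4% and 46.6% of all regions. By counts, 12 of the 77 were called higher in dKO and 3 lower, beside 11.1% and 14.6% of all regions with islands in both lists. The 12 lay at Runx2 (10) and Runx1 (2), and the 3 lay at Ikzf2 (2) and Ikzf1 (1). By counts per kb, 1 region was called higher, in a Runx2 intron (chr17:44808401-44814200, log2 ratio 0.64), and 2 were called lower, the Ikzf5 and Supt3h promoters, while 1.17% of all regions were called higher and 4.51% lower.

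**Figure D3:**
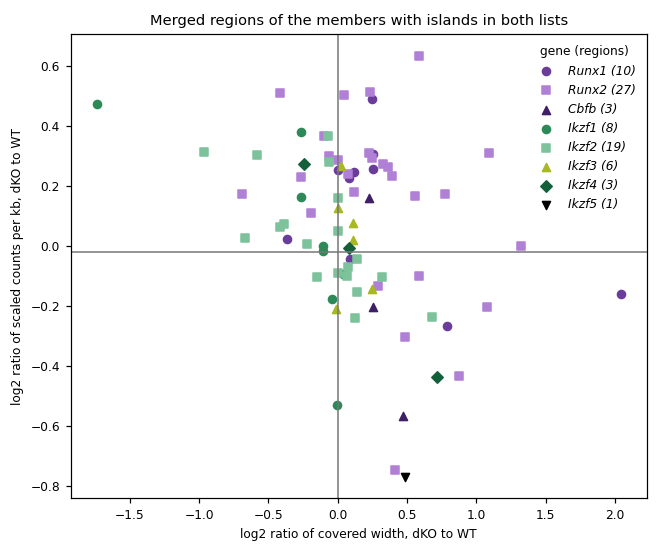
Log2 ratio of covered width (horizontal axis) against log2 ratio of scaled counts per kb (vertical axis), dKO to WT, for the 77 merged regions with islands in both lists, 1 symbol per region and 1 colour per gene. Grey lines mark the medians of all 45322 regions. Most Runx1 and Runx2 regions lie above the horizontal line, with 7 of 10 and 21 of 27 above a log2 depth ratio of 0, while the Ikzf1 promoter, Cbfb promoter, Ikzf5 promoter and the Supt3h promoter inside Runx2 lie below it.

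The sequences before the starts are shown because the members' promoter regions differed from each other in depth ratio and in CpG pairs. Many promoters of widely active genes carry CpG pairs at high density. Both families held promoters with few and with many pairs. Sequences of 5 of the 8 genes were found in the RefSeq promoter table (build GRCm38.p6), and each was located in mm9 by an exact match. The stretch is the 250 bases before the start, or its part outside annotated exons, with CpG pairs in capitals.
Runx1 distal promoter, chr16:92826320-92826569, minus strand: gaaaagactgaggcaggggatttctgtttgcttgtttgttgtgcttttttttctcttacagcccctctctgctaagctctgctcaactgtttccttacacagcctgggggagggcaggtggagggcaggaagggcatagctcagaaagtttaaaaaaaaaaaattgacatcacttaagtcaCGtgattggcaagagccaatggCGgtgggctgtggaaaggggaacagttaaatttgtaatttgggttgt
Runx1 proximal promoter, chr16:92697575-92697824, minus strand: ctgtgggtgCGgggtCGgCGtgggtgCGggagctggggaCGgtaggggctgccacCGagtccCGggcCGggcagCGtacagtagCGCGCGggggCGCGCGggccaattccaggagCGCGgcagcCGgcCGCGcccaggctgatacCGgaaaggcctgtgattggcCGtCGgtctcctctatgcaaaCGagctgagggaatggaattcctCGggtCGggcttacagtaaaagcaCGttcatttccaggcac
Runx2 distal promoter, chr17:44951747-44951826, minus strand: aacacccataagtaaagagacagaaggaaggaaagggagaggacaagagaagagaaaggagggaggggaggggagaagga
Cbfb promoter, chr8:107694324-107694573, plus strand: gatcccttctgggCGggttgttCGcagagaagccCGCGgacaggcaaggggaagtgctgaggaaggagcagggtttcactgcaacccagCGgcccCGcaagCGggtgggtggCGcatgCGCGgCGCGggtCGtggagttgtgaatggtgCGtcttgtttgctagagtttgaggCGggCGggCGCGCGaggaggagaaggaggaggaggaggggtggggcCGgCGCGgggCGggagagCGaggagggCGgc
Ikzf1 promoter, chr11:11585678-11585927, plus strand: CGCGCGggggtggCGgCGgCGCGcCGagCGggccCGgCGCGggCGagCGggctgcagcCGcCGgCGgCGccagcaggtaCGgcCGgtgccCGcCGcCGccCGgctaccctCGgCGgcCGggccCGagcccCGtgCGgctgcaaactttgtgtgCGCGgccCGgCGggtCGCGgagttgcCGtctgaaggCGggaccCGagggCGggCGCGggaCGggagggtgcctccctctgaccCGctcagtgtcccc

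The Runx1 distal promoter held 2 CpG pairs in these 250 bases and the proximal promoter 27, the Runx2 distal promoter held 0, the Cbfb promoter 25, and the Ikzf1 promoter 44. A second Ikzf1 start, 5.17 kb downstream of the gene's start, held 1, and the Ikzf5 promoter, which is not printed, held 18. The median over 32851 RefSeq promoters was 6 CpG pairs, with 0 and 31 at the 5th and 95th percentile. The list thus spans the whole range, from the Runx2 distal promoter at its bottom to the Ikzf1 promoter above the 95th percentile. The Tcf/Lef motif ATCAAAG, searched on both strands, was in 0 of the 7 promoters of the members and in 3.21% of all promoters. The Runx motif TGTGGT was in 1 of them, the Runx2 distal promoter, and in 14.0% of all promoters, and the Ikaros motif TGGGAA was in 0 of them and in 21.6% of all promoters. The search used the full 250 bases, and the Runx2 match is not within the 80 bases printed. These matches describe letters only.

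Promoter regions with more CpG pairs had lower depth ratios over the genome. In mm9, each promoter region was given the highest number of CpG pairs in the 250 bases before any of its starts. Among 3763 promoter regions with under 10 pairs the median log2 counts per kb ratio was -0.04 and 43.6% were above 0, whereas among 4964 regions with at least 20 pairs the median was -0.26 and 14.97% were above 0. Of the members' promoter regions with at least 20 pairs, Ikzf5 (25 pairs, -0.77), Cbfb (25, -0.57) and Ikzf1 (44, -0.53) lay below that median, Runx1 proximal (27, -0.27) lay at it and Ikzf3 (34, -0.21) just above. The Runx2 proximal promoter, with 25 pairs and a log2 ratio of 0.51, lay far above it. All these ratios cover whole merged regions. At Cbfb and Ikzf3 the dKO island over the start held more CPM per kb than the WT one, but it was the narrower island. Those means cover unlike stretches and do not compare the depth at the start itself. By counts per kb, 1 of the 10 promoter regions (Ikzf5) was called lower in dKO and 0 higher, against 12% and 0.588% of all 12251 promoter regions. By counts, 0 were called in either direction, against 12% lower and 4.49% higher. The Runx1 and Runx2 distal promoters, with 2 pairs each, were both above 0, Ikzf2 (6 pairs) was at -0.24 and Ikzf4 (10 pairs) at -0.01.

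**Figure D4:**
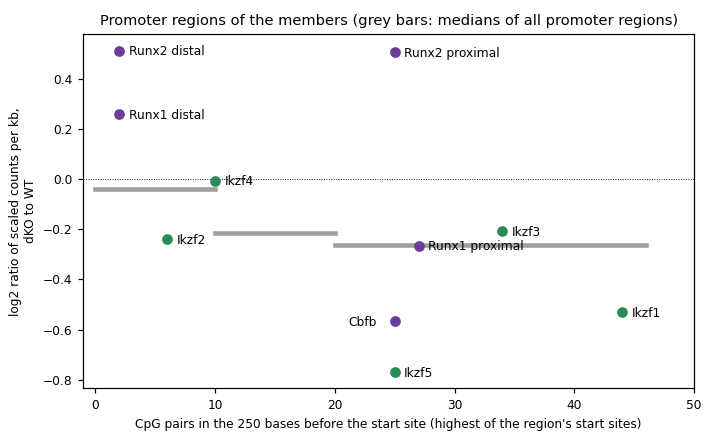
Log2 ratio of scaled counts per kb, dKO to WT (vertical axis), against the number of CpG pairs in the 250 bases before the start site (horizontal axis) for the 10 promoter regions of the 8 genes, with the Runx group in purple and the Ikaros group in green. Grey bars are the medians of all promoter regions with under 10, 10 to 19 and at least 20 pairs (-0.04, -0.21 and -0.26). Both Runx2 promoters and the Runx1 distal promoter lie above 0, and the other 7 points lie below it.

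Depth itself also went with the ratio over the genome. Among merged regions above the 90th percentile of mean scaled depth the median log2 counts per kb ratio was -0.36, and below the 25th percentile it was 0.04. The promoter regions of Ikzf1, Ikzf5 and Cbfb were above the 90th percentile of depth and lay below that median. The Runx1 and Runx2 proximal promoters were also above the 90th percentile and lay above that median, at -0.27 and 0.51. The promoter regions of Runx1 (distal), Ikzf2, Ikzf3 and Ikzf4 fell between the 75th and 90th percentile of depth, where the median was -0.16, and the Runx2 distal promoter fell between the 50th and the 75th, where it was -0.01. Whether CpG content and depth had separate parts in these ratios was not tested.

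The density of the Tcf/Lef motif in the islands of the family genes lay on both sides of that in all islands. It was found 0.163 times per kb in all WT islands and 0.160 times per kb in all dKO islands. In WT islands the density was 0.179 per kb at Runx1, 0.140 at Runx2, 0.088 at Ikzf1, 0.192 at Ikzf2, 0.257 at Ikzf3, 0.187 at Ikzf4 and 0.263 at Cbfb, from between 4 and 37 matches a gene, with 0 matches at Ikzf5. Ikzf1 thus had the lowest density among genes with a match and Cbfb, with 4 matches, the highest. Where WT and dKO islands had different widths the density in dKO was lower or nearly equal, at 0.178 for Runx1, 0.125 for Runx2 and 0.168 for Cbfb.

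Among genes for proteins that work with the 2 families, a list of 25 was examined in the same windows, and 23 had islands in both lists. Of these, 5 were called higher in dKO and 0 lower, against 11.5% of all genes in each direction, and the median log2 count ratio was 0.15. The Groucho and ETO group, listed as Runx cofactors, had 3 of 7 called higher. Tle2 was highest at 1.32 (1.29 to 1.35), followed by Cbfa2t3 at 0.81 (0.78 to 0.84) and Aes at 0.70 (0.67 to 0.72). The NuRD, CtBP and Sin3 group, whose subunits bind Ikaros proteins, had 2 of 16 called higher, Mta1 at 0.86 (0.83 to 0.88) and Sin3b at 0.79 (0.76 to 0.83). The lowest of the list were Tle4, a Groucho corepressor, at -0.46 (-0.50 to -0.42), Rbbp7, a histone-binding NuRD subunit, at -0.46 (-0.56 to -0.36) and Mbd2, a methyl-CpG-binding NuRD subunit, at -0.40 (-0.43 to -0.37).

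Covered width was larger in dKO at 19 of 23 cofactor genes, beside 65.1% of all genes, and smaller at 4, with a median log2 width ratio of 0.49 against 0.17 for all genes. Scaled counts per kb were higher in dKO at 5 of 23, beside 20.6% of all genes. By counts per kb 0 were called higher, beside 0.42% of all genes, and 1, Ctbp1, was called lower at -0.73, beside 9.28%. The median was -0.23 against -0.16 for all genes. Ctbp2 had a dKO island alone, with 1176 counts over 14.6 kb, and Runx1t1 had no island in either list.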

How the data were processed

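H3K27ac ChIP-seq was done on sorted naive CD8+ T cells from WT (4 samples) and dKO mice (3 samples), with 1 input each. The authors aligned reads to mm9 and kept those that mapped uniquely with a quality above 10. Islands were called with SICER on the pooled replicates of each genotype (window 200 bp, gap 400 bp, FDR 0.01). The submitters' processing notes name FastQC, Bowtie2 2.2.5 and SICER 1.1. The deposited counts are whole read counts per island, scaled neither for depth nor for width. A region without an island has no value rather than a 0, and a shift of an island's border alone changes its count. The totals are reads in islands, not all reads sequenced, so scaling to them also removes differences in enrichment. Input samples were not analysed here. Reads were amplified by PCR and carry no molecular identifiers, so they need not be independent molecules.

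Island starts were converted to count from 1. Gene positions came from GENCODE vM1 on the NCBIM37 assembly, which is mm9, and 2 overlapping annotation entries of Runx2 were joined. Each gene's islands, from its body to 50 kb upstream, were summed per list and divided by the total island counts of the list. Genes and merged regions at a ratio of at least 1.5 either way were called, and regions with an island in 1 list alone got no ratio. Promoters spanned 1 kb on each side of a TSS. Calculations used Python 3.11.15, numpy 2.4.6 and scipy 1.17.1, and the steps were tested on simulated data. Tests across genotypes were not possible with 1 pooled list each. The levels are from 2 lists whose depth differs, and exact intervals cover counting error only.

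The members, the cofactor list, the marker lists and the rules were chosen with earlier results of these data known. The text names the 8 genes, other genes with a TSS in their windows or regions, the region over each promoter, the region with the most counts per gene, the 3 regions that gained most and the 3 that lost most by count ratio among those with at least 200 counts, the 3 strongest islands found in 1 list alone, and the 3 highest and 3 lowest cofactors. Further regions and cofactors named were chosen after their values were seen, as were the CpG counts, the depth classes and the Foxp3, Il2ra, Cd8a and Cd8b1 values. Alternatives changed the scaling, the measure, the window, the assignment of islands, the filter on weak islands and the ratio called.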

Additional observations from a re-analysis of the deposited data

How the results depend on the processing

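No paired analysis was possible because the lists were called on pooled replicates, and for the same reason no replicate could be left out in turn. The number of members called higher in dKO was 1. It was 2 when counts were scaled to the totals of regions present in both lists, 2 when the median ratio of those regions was set to 1, 0 by counts per kb, 0 with island counts taken in proportion to the width inside the window, 0 at a ratio of at least 2 and 3 at a ratio of at least 5 to 4. The number called lower was 0, and it was 1 by counts per kb and 1 at a ratio of at least 5 to 4. The other settings gave the reported numbers. With 50% reciprocal overlap the share of member islands matched in the other list was 51.8% in WT and 42.4% in dKO, against 95.6% and 77.0%. Over the 10 settings, the reported one included, the log2 count ratio ranged from 0.13 to 0.53 at Runx1, from 0.18 to 0.67 at Runx2 and from -0.44 to -0.18 at Ikzf1, and over 9 settings from -0.77 to -0.21 at Ikzf5, whose only island covers the Acadsb promoter and left no value without islands over other promoters. The sign turned with at least 1 setting at Cbfb (-0.45 to 0.59), Ikzf2 (-0.33 to 0.00), Ikzf3 (-0.00 to 0.39) and Ikzf4 (-0.35 to 0.37), and the cause was not tested. The depth of the lists limits weak islands most, since a region under the caller's threshold in 1 genotype has no count.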
